A study of Mus musculus with 2148 samples.

Results

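Mouse thymic epithelial cells held, in a few cells at a time, runs of reads on predicted genes that lie inside 4 very long neuronal genes. The 36 genes described here were the 4 host genes Kcnip4, Fam155a, Dlg2 and Ctnna2 with 32 listed predicted genes inside them, of 48437 genes in the count table. Of the predicted genes, 18 lie in Kcnip4, 6 in Fam155a, 4 in Dlg2 and 4 in Ctnna2. They had been chosen because their reads fell together in the same cells and were far more abundant in WT than in Aire-KO mTEChi cells, so both of those patterns are given below as descriptions, from which nothing is tested. All 36 were found in the table by their Ensembl identifiers, and all 36 passed the filter on low counts.

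The study examined how Aire and age shape gene expression in thymic epithelial cells, and these data were its deep single-cell RNA-seq by RamDA-seq, which primes full-length total RNA with oligo(dT) and random primers in single sorted cells. All mice were C57BL/6, WT or Aire-KO, and cells were sorted by FACS as CD45-negative and EpCAM-positive. Medullary cells (mTEC) were Ly51-negative with high (mTEChi) or low (mTEClo) MHC class II, and cortical cells (cTEC) were Ly51-positive. In all, 1980 cells in 8 groups on 26 plates formed 13 pools, a pool being the cells of 1 group with the same age and sex. A plate here is 1 value of the label for experimental batch, which that label does not itself call a plate. The labels do not number the mice, so a pool may hold several mice, and p-values below measure the spread between these pools, which may in part be technical. Adult WT mTEChi comprised 620 cells in 4 pools, of which pool 1 held 71.6% (males of 4 weeks), pool 2 only 12 cells (males of 5 weeks), pool 3 82 cells (males of 6 weeks) and pool 4 82 cells (females of 4 weeks). Adult WT mTEClo, 18.03% of all cells, came from males in 3 pools, with 60.8% of its cells in pool 1 (8 weeks), 74 cells in pool 2 (5 weeks) and 66 in pool 3 (4 weeks). The other groups were 1 pool each. They were adult Aire-KO mTEChi (17.1% of all cells, males of 5 weeks), adult Aire-KO mTEClo (7.78%, males of 5 weeks), adult WT cTEC (77 cells, males of 6 weeks) and, from WT newborns 1 day old whose sex was not given, mTEChi (8.64% of all cells), mTEClo (6.26%) and cTEC (7.02%). The 3 newborn groups came from the same 5 plates, whereas no adult group shared a plate with another. Age therefore differed between pools of the same group, and genotype and plate cannot be told apart within mTEChi.

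Each cell had between 203010 and 1823784 counted reads, and no 2 cells had identical counts. Aire, the gene deleted in the knockout, stood at 1110, 1845, 1125 and 1790 depth-scaled counts (CPM, the reads of a gene per mega-reads counted in the pool) in the 4 adult WT mTEChi pools and at 26.1 CPM in Aire-KO mTEChi. It was at 26.1 to 39.5 CPM in the adult WT mTEClo pools and at 0.153 CPM in Aire-KO mTEClo. Which exons the knockout lacks is not given in the sources used here. By marker genes, the 4 mature mTEC markers summed to 3139 to 4427 CPM in adult WT mTEChi pools against 527.3 to 1069 CPM in adult WT mTEClo pools, and the 4 cTEC markers to 3533 and 3679 CPM in the 2 cTEC pools. Aire-KO mTEChi held 2121 CPM of the mature mTEC markers, of which Aire itself is 1. Markers of other cells were present in every group, with thymocyte markers at 15.9 to 304.9 CPM over the group means and stromal markers at 0.815 to 277.99 CPM; their part in the results was not tested.

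As background, Aire is a nuclear protein of mature mTECs that promotes transcription of a large, scattered set of tissue-restricted genes, so that developing T cells meet self antigens in the thymus. Each such gene is read in only a small share of mTECs. Very long genes are mostly intron, and their unspliced transcripts can be caught by random priming. A predicted gene of the biotype TEC (a label for regions still in need of experimental evidence) is a region where a transcript was once sequenced without further proof of an independent gene. The hosts all belong to neuronal membranes and junctions. Kcnip4 encodes a calcium-binding subunit of Kv4 potassium channels, Fam155a an auxiliary subunit of the sodium leak channel NALCN, Dlg2 the postsynaptic scaffold PSD-93, and Ctnna2 the neuronal alpha-catenin that links cadherins to actin.

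In the GRCm38 annotation the hosts were 1 gene each of chromosomes 5, 8, 7 and 6. Kcnip4 (ENSMUSG00000029088, minus strand, positions 48389502 to 49524907 of chromosome 5) spanned 1135 kb, Fam155a (ENSMUSG00000079157, minus strand, 9205902 to 9771161 of chromosome 8) 565.3 kb, Dlg2 (ENSMUSG00000052572, plus strand, 90476672 to 92449247 of chromosome 7) 1973 kb and Ctnna2 (ENSMUSG00000063063, minus strand, 76881637 to 77979699 of chromosome 6) 1098 kb. With the exons of all annotated host transcripts merged, the predicted genes inside Fam155a, Dlg2 and Ctnna2 all sat within 1 intron of their host, and those of Kcnip4 in 4 introns. Measured to the centre of each gene, as are all distances of genes below, they lay 408.3 to 929 kb downstream of the first annotated start of Kcnip4, 61.03 to 175.1 kb from that of Fam155a, 1044 to 1171 kb from that of Dlg2 and 507.03 to 655 kb from that of Ctnna2. Of the 32, 30 were TEC genes, 29 lay on the host's strand and 31 had a single exon, with 632 to 4832 exonic bases (median 2238). The exceptions were in Kcnip4, where Gm20700 was an antisense gene of 2 exons that shared 99 bases with host exons, Gm19031 a processed pseudogene and Gm43047 a TEC gene on the opposite strand that overlapped Gm43046. The reads were counted without strand, so a read on Gm43047 and one on Gm43046, or a read from a predicted gene and one from the host's unspliced intron, cannot be told apart. Both overlapping genes, and Gm20700, are uncertain for that reason.

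To show what kind of sequence the reads fell on, the last 100 bases of 5 predicted genes on which the results turn are printed 5′ to 3′ on the transcript's strand, from GENCODE transcripts on GRCm38, with the poly(A) signal words AATAAA and ATTAAA in capitals, overlapping words included. Gm42768 (chr5:49083874-49083973, minus strand) was the most abundant gene of the Kcnip4 set, Gm44798 (chr8:9618153-9618252, minus strand) that of the Fam155a set, and Gm44435 (chr6:77412300-77412399, minus strand) that of the Ctnna2 set by total reads. Gm44679 (chr7:91521923-91522022, plus strand) and Gm44676 (chr7:91611911-91612010, plus strand) are the Dlg2 genes that differed most in where they were read.
Gm42768: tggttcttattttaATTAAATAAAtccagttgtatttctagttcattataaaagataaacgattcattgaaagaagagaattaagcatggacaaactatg
Gm44798: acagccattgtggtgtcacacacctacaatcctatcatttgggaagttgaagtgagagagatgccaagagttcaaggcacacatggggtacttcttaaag
Gm44435: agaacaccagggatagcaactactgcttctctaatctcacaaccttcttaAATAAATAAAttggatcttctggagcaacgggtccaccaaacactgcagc
Gm44679: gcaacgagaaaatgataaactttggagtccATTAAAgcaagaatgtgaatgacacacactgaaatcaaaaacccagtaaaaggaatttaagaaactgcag
Gm44676: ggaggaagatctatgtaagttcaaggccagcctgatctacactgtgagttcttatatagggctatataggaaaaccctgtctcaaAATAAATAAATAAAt
GC content was computed over whole transcripts and not for these ends. Over the 33 annotated transcripts of the 32 genes, GC content ranged from 32.6% to 44.5% with a median of 38.0%, against a median of 42.4% over 3266 other TEC transcripts. AATAAA or ATTAAA, searched on the transcript strand, stood within the last 50 bases of 10 of the 33 transcripts (30.3%), against 28.97% of the other TEC transcripts. A run of at least 10 A stood somewhere in 8 of the 33 (24.2%), against 18.1% of the others. A match of these letters is a description of the sequence and not a site.

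The starts of the hosts, where transcription through these introns would begin, were of different kinds. The windows printed run from 250 bases before to 50 bases after a start in RefSeq on GRCm38.p6, 5′ to 3′ on the gene's strand, with each CG dinucleotide in capitals. The table used held 32851 such windows with a median of 7 CG dinucleotides and 52.7% GC, and 3 of the 4 hosts had an entry. The Kcnip4 window is at chr5:49285610-49285909, minus strand, 239.2 kb inside the gene, the Dlg2 window at chr7:91090536-91090835, plus strand, 614.1 kb inside the gene, and the Ctnna2 window at chr6:77979618-77979917, minus strand, at the first start. These 3 are shown because they are the last RefSeq starts upstream of the listed genes.
Kcnip4 start: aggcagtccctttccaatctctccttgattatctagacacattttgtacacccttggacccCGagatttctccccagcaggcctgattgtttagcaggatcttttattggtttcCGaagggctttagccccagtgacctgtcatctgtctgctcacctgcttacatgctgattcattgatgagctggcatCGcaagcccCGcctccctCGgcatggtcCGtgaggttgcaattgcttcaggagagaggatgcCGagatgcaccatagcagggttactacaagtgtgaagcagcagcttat
Dlg2 start: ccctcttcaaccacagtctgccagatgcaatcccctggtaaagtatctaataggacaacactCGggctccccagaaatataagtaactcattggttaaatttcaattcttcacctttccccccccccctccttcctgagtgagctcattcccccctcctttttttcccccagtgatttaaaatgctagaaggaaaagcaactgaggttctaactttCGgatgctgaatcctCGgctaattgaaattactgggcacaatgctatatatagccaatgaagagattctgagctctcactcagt
Ctnna2 start: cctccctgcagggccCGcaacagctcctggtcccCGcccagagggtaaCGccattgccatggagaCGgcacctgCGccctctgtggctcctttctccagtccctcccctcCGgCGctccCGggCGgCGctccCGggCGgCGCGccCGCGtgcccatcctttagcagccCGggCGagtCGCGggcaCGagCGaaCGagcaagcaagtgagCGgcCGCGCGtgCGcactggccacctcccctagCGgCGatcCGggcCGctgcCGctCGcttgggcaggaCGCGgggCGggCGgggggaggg
The Kcnip4 window held 7 CG dinucleotides, and 52.1% of all windows held at least as many. The Dlg2 window held only 3 (76.7% of windows held at least as many) and the Ctnna2 window 38 with 75.3% GC, a density reached by 4.95% of windows. Fam155a was not in the table.

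Over all 1980 cells the 32 predicted genes drew 31547 reads, from 93 on Gm43830 to 3479 on Gm44676 (median 750). Each was read in few cells, from 25 cells for Gm44801 upward (median 55), and the 10 cells with the most reads held 42.9% to 93.9% of a gene's total. The reads were also joined across genes. A cell was said to hold a block of a host when at least 50% of the listed genes inside that host had a read, which means 9 of the 18 in Kcnip4, 3 of the 6 in Fam155a, 2 of the 4 in Dlg2 and 2 of the 4 in Ctnna2. By this definition 2.22%, 1.52%, 5.35% and 5.05% of the 1980 cells held a Kcnip4 (44 cells), Fam155a (30 cells), Dlg2 or Ctnna2 (100 cells) block. These cells held 86.8%, 92.4%, 95.9% and 93.2% of the predicted genes' reads. In contrast 1671, 1885, 1758 and 1785 cells had no read at all on the listed genes of the respective host. A single cell could carry much of a sum, with 2479 reads (16.9% of all reads on the Kcnip4 set) in the highest cell for Kcnip4, 1007 reads (38.5%) for Fam155a, 983 (11.5%) for Dlg2 and 490 (8.57%) for Ctnna2. Over all groups together, cells with a block were not deeper than the others. The median depth was 667290 against 693556 reads for Kcnip4 and 639201 against 693444 for Fam155a. It was 641568 against 695365 for Dlg2 and 689044 against 693446 for Ctnna2. Within groups this varied. For Fam155a it was 790002 against 589269 reads in adult WT mTEClo but 680875 against 775444 in adult WT mTEChi.

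Within a block the reads formed near-continuous runs along the host. Among the Dlg2 block cells 94.3% had a read on every listed gene between the first and the last one read, as had 92 of 100 for Ctnna2, 18 of 30 for Fam155a and 12 of 44 for Kcnip4, the set with the most genes. The median distance from the first to the last gene read was 450 kb in Kcnip4, 114.1 kb in Fam155a, 37.6 kb in Dlg2 and 58.3 kb in Ctnna2. Genes that were not listed but lay inside the same hosts had no part in calling a block. They were mostly higher in block cells too, but the median one was read in fewer of these cells. For Dlg2 the median listed gene was read in 81.1% of block cells and the median unlisted one in 9.43%. Many of the unlisted Dlg2 genes were thus read in few block cells. In Kcnip4, Fam155a and Ctnna2 the median unlisted gene was read in 35.2%, 33.3% and 46.5% of block cells. Per kb of exon, 12 of 12 such genes in Kcnip4, 5 of 6 in Fam155a, 21 of 25 in Dlg2 and 5 of 6 in Ctnna2 were more than 10 times as high in block cells as in the other cells. Of the genes within 100 kb outside the hosts, 0 of 3, 0 of 5, 0 of 5 and 1 of 2 were. The 1 exception was Gm44255, 5.84 kb before the start of Ctnna2, which had 36 reads in all. On the same scale the listed genes had medians of 10.2, 11.1, 13.3 and 5.93 CPM per kb in the block cells of Kcnip4, Fam155a, Dlg2 and Ctnna2, against 0.0309, 0.0122, 0.0308 and 0.00965 CPM per kb in the other cells; a block was defined by these genes, so this gap is a description.

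**Figure D1:**
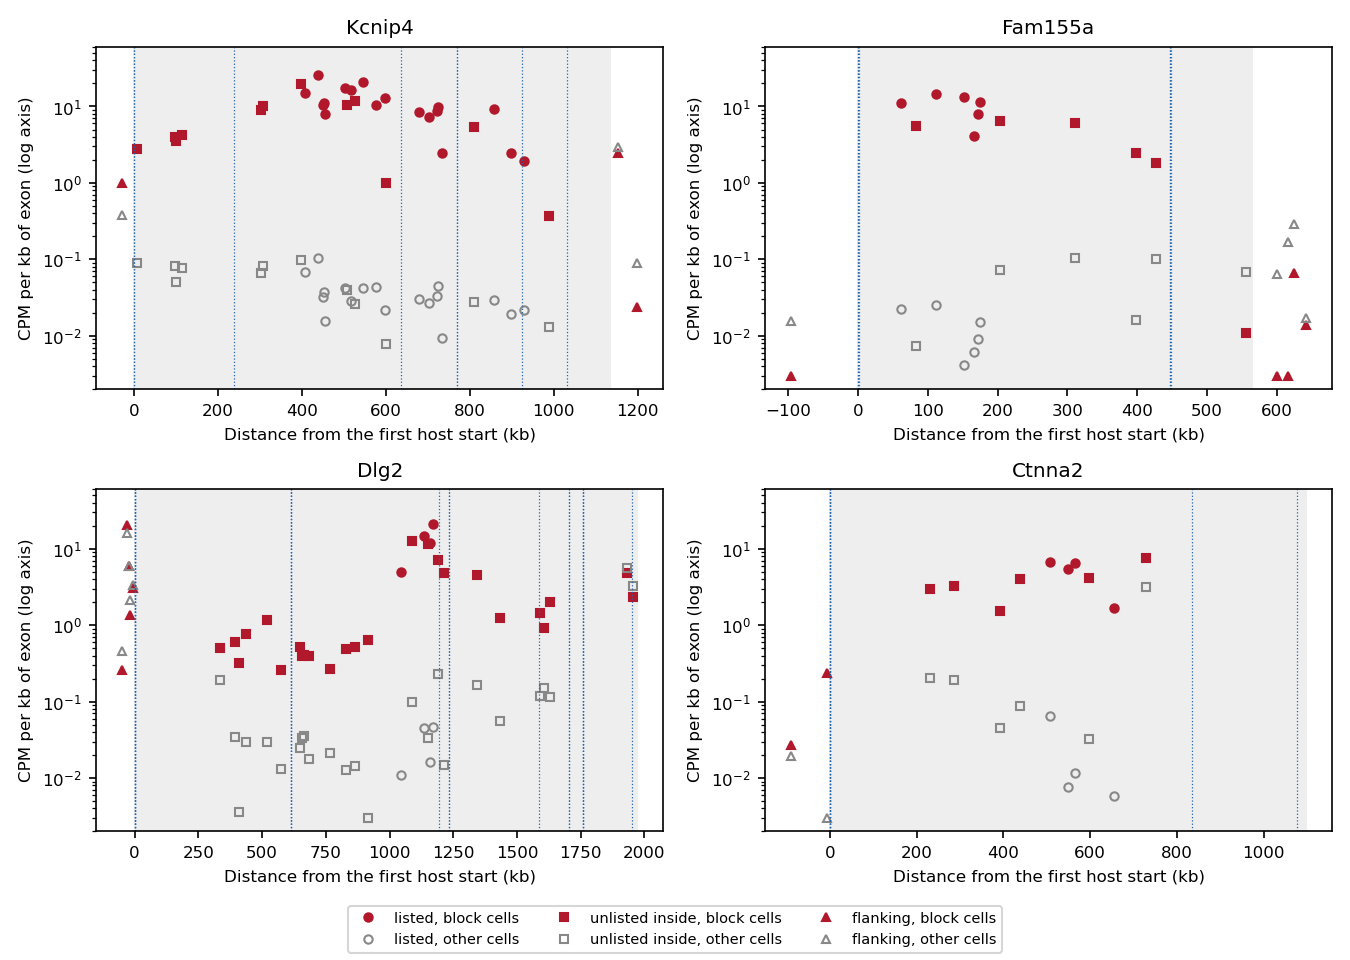
Level per kb of exon (CPM per kb, log axis, 0 drawn at 0.003) of every gene in and within 100 kb of each host, against the distance in kb of its centre from the host's first annotated start, in block cells (red) and all other cells (grey). Circles are listed genes, squares other genes inside the host, triangles flanking genes, the shaded span the host and dotted lines its annotated starts. Most red squares inside the hosts lie far above the grey ones, with exceptions such as B230206I08Rik and Gm45201 in Dlg2 and Gm44542 in Fam155a. Flanking genes do not separate in that way, apart from Gm44255 beside Ctnna2.

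Levels along Kcnip4 were uneven. In the 44 block cells the 4 genes upstream of the start at 239.2 kb, whose sequence is given above, were unlisted and stood at 2.74 to 4.30 CPM per kb. The level was 9.05 CPM per kb on unlisted Gm42771 at 303.99 kb. It reached 19.6 CPM per kb on unlisted Gm42770 at 398.2 kb and 25.6 CPM per kb on Gm42768 at 440 kb, which was read in 93.2% of the block cells. Further on it varied from gene to gene, with 7.88 CPM per kb on Gm43046 at 454.7 kb, 17.4 on Gm42766 at 503.2 kb and 21.1 on Gm43341 at 545.98 kb. It was 2.47 CPM per kb on Gm43830 at 733 kb and 9.16 on Gm19031 at 858 kb, and the lowest values beyond that were 1.96 on Gm20700 at 929 kb and 0.372 on unlisted Gm43831 at 988 kb. Between 635 and 1033 kb 5 further start positions are annotated.

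The summed levels show how uneven pools of few block cells are. The predicted genes inside Kcnip4 summed to 23.1, 0, 61.8 and 9.11 CPM in the 4 adult WT mTEChi pools, a mean of 23.5 CPM ± 27.2 (SD, n = 4), and to 0.297 CPM in Aire-KO mTEChi. They summed to 12.3 CPM in newborn mTEChi, to 3.11, 0.934 and 0.0639 CPM in the adult WT mTEClo pools, 1.29 CPM in Aire-KO mTEClo, 0.150 CPM in newborn mTEClo, 0.0307 CPM in adult cTEC and 0.188 CPM in newborn cTEC. High values were thus those of mTEChi outside the knockout, except pool 2 with its 12 cells, and the mTEChi and mTEClo pools overlapped because of that pool. In a sum, fewer cells with these transcripts and less RNA per cell cannot be told apart. The shares of block cells given further on depend on both as well, since a block needs reads on several genes.

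Fam155a's predicted genes summed to 4.15, 14.6, 6.13 and 0.206 CPM in the adult WT mTEChi pools and to 0.00683 CPM in Aire-KO mTEChi, which was 2 reads. They were at 1.59 CPM in newborn mTEChi, at 0.347, 1.98 and 2.02 CPM in adult WT mTEClo, 1.43 CPM in Aire-KO mTEClo, 0.637 CPM in newborn mTEClo, 0 in adult cTEC and 0.0791 CPM in newborn cTEC. Here pool 2 was the highest, from 1 cell of its 12 with a block. Every adult WT mTEChi pool lay above the knockout, and the mTEChi and mTEClo pools overlapped.

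Dlg2's predicted genes showed another order. They summed to 5.37, 0.250, 22.5 and 10.9 CPM in the adult WT mTEChi pools and to 0.147 CPM in Aire-KO mTEChi, against 10.0, 31.9 and 16.4 CPM in the adult WT mTEClo pools, the highest of all groups in the mean. Aire-KO mTEClo held 4.18 CPM, newborn mTEChi 0.351 CPM, newborn mTEClo 2.05 CPM, adult cTEC 0.277 CPM and newborn cTEC 0.870 CPM. In adult WT cells this was the set with a higher mean in mTEClo than in mTEChi, and within adult mTEClo the knockout pool lay below all 3 WT pools.

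Ctnna2's predicted genes summed to 7.26, 0, 1.29 and 2.56 CPM in the adult WT mTEChi pools and to 0.0410 CPM in Aire-KO mTEChi. The newborn and cortical pools were as high as these, with 7.01 CPM in newborn mTEChi, 7.68 CPM in newborn mTEClo, 5.67 CPM in adult cTEC and 7.87 CPM in newborn cTEC. Adult mTEClo held 0.391, 3.12 and 3.22 CPM in WT and 1.11 CPM in the knockout. This set alone of the 4 was read at several CPM in cTEC, where Aire stood at 3.57 CPM in the adult and 58.01 CPM in the newborn pool.

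**Figure D2:**
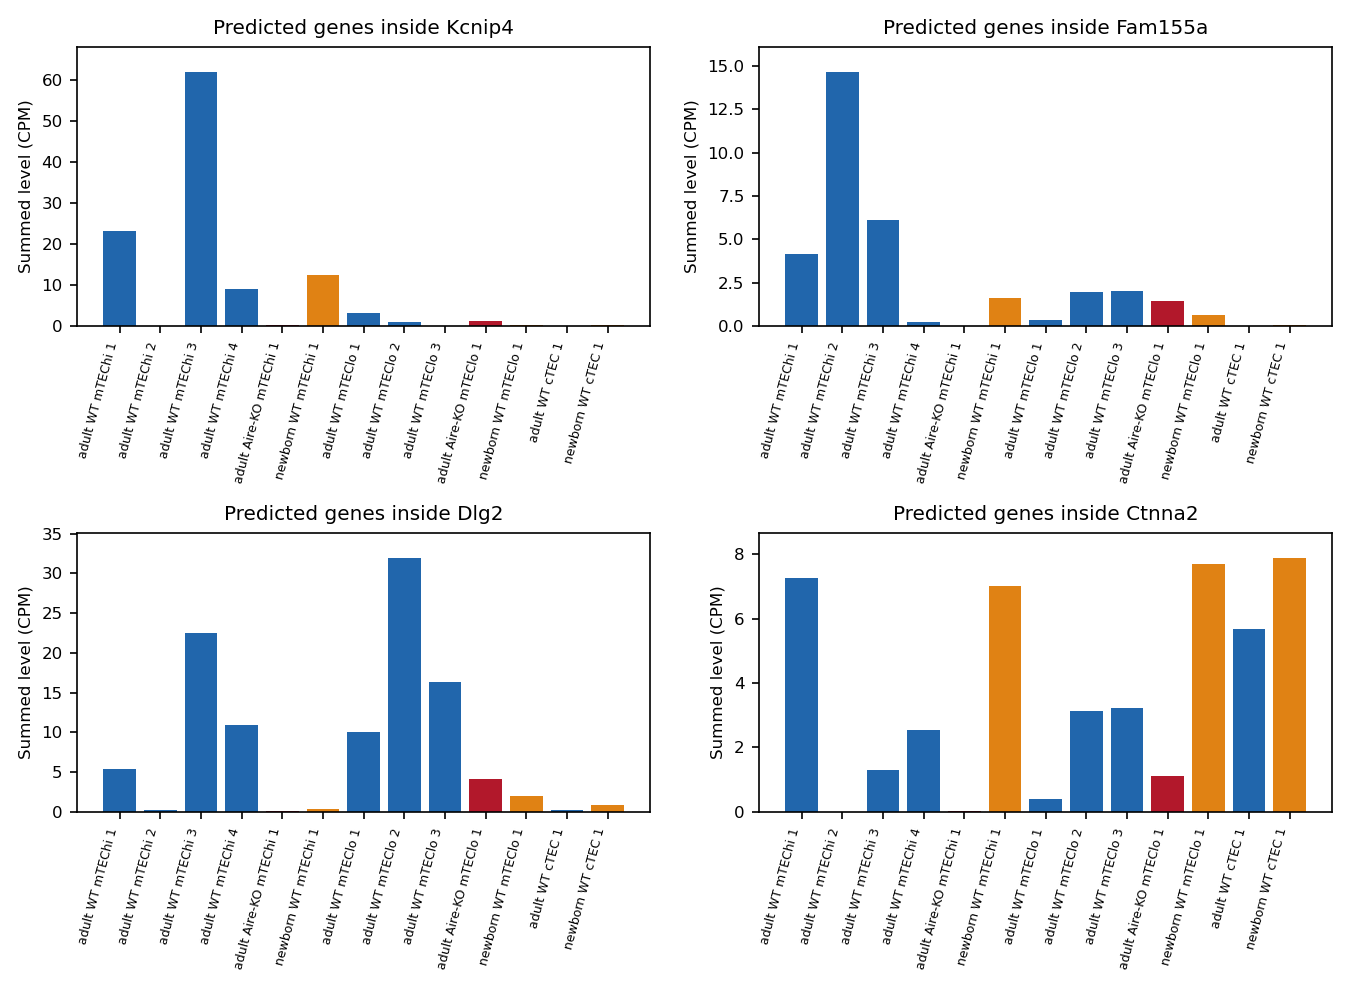
Summed level (CPM, linear axis from 0) of the predicted genes inside each host in the 13 pools, 1 bar per pool (blue adult WT, orange newborn WT, red adult Aire-KO). The Kcnip4 set reaches 61.8 CPM in adult WT mTEChi pool 3, the Dlg2 set is highest in adult WT mTEClo pool 2 at 31.9 CPM, and the Ctnna2 set stands at 5.67 to 7.87 CPM in the newborn pools and cTEC.

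The contrast of Aire-KO with WT adult mTEChi chose these genes, and its values follow as a description. Summed over all cells, WT mTEChi had 12848 reads on the Kcnip4 set and the knockout 87, a ratio of CPM of 90.6 (exact 95% interval 73.4 to 113.2). The ratio was 617.6 (170.7 to 5103, 2014 against 2 reads) for the Fam155a set, 56.8 (42.1 to 78.7, 3986 against 43 reads) for the Dlg2 set and 141.3 (80.8 to 273.8, 2765 against 12 reads) for the Ctnna2 set. These intervals cover counting error only, and the reads lie in few cells. The exons of the hosts did not share these ratios, being 1.496 for Kcnip4, 0.537 for Dlg2 and 1.63 for Ctnna2, while Fam155a's was 32.8. At the level of single genes, 15 of the 32 were without a single read in the knockout pool, and the highest of the others was Gm43318 at 0.0853 CPM. All 32 had at least 3 of the 4 WT pools above the knockout, and 5 had all 4. In edgeR's quasi-likelihood test over the 11 mTEC pools, with 39971 genes tested, 0 of the 36 genes passed an adjusted p of 0.05 with a fold of at least 2, and the share over all genes was 0% higher and 0% lower. Before adjustment, 20 of the 32 predicted genes had a p under 0.05 with a lower level, none with a higher one (3.19% and 1.18% of all genes), and DESeq2 called 13 of the 36 lower and 1 higher. Since this contrast chose the genes, nothing is read from these counts. With a single knockout pool the test drew its spread from the other groups. Aire itself, with a log2 fold change of -5.69, was not called either.

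**Figure D3:**
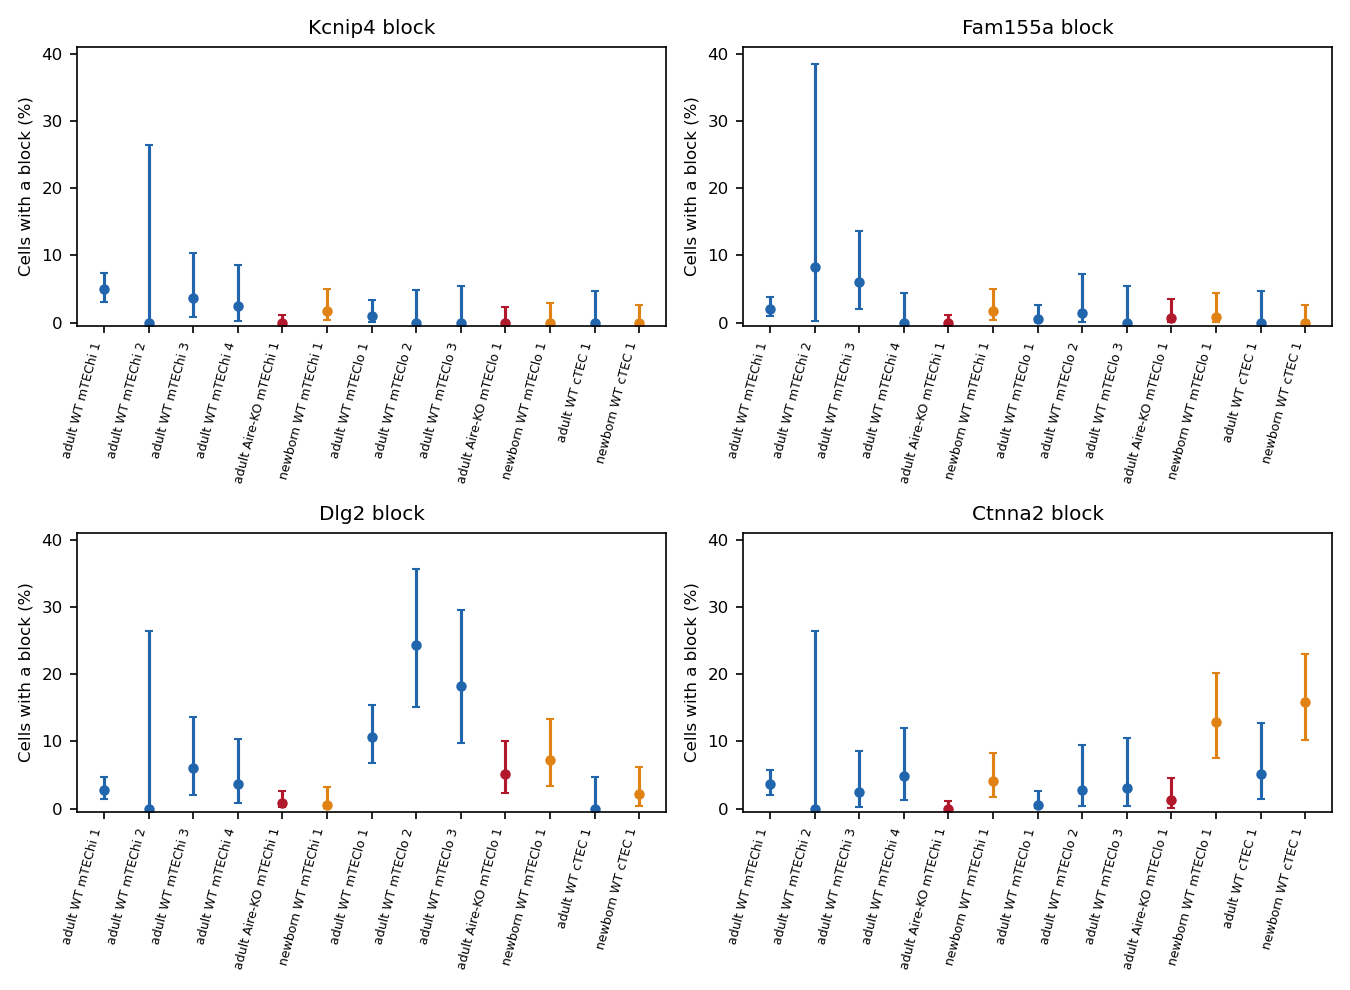
Share of cells (%) with a block of each host in the 13 pools after each cell was thinned to 200000 reads. Bars are exact 95% binomial intervals. Adult Aire-KO mTEChi lies at 0 for Kcnip4, Fam155a and Ctnna2 and at 0.888% for Dlg2. The adult WT mTEClo pools lie at 10.6% to 24.3% for Dlg2, each above every other pool.

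Counting cells removes the weight of the few highest cells. Each cell was first thinned to 200000 reads, the depth which all 1980 cells exceeded, and the unthinned count is given beside it. Kcnip4 blocks were found in 27 of 620 adult WT mTEChi cells (33 unthinned), at 4.95%, 0%, 3.66% and 2.44% of the cells of the 4 pools. None was found in Aire-KO mTEChi, which allows a share of up to 0.888%. The other groups held 3 (8 unthinned) in newborn mTEChi, 2 (2) in adult WT mTEClo, 0 (1) in Aire-KO mTEClo, and 0 in newborn mTEClo and both cTEC pools. By plate, unthinned Kcnip4 blocks occurred on 8 of the 9 adult WT mTEChi plates, the exception being a plate with 17 cells, and on 0 of the 4 knockout plates.

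Fam155a blocks were found in 15 (17 unthinned) of the adult WT mTEChi cells and 0 of the Aire-KO mTEChi cells. Newborn mTEChi held 3 (4), adult WT mTEClo 2 (7), Aire-KO mTEClo 1 (1) and newborn mTEClo 1 (1). There was none in either cTEC pool. By pool, adult WT mTEChi held 2.03%, 8.33%, 6.10% and 0%, where 8.33% is the 1 cell of 12 already mentioned and raises the mean over the 4 pools to 4.11%.

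Dlg2 blocks were found in 20 (22 unthinned) adult WT mTEChi cells, in 3 (3) Aire-KO mTEChi cells or 0.888%, and in 53 (57) adult WT mTEClo cells or 14.8%. The 3 adult WT mTEClo pools held 10.6%, 24.3% and 18.2%, each above all 4 adult WT mTEChi pools with 2.70%, 0%, 6.10% and 3.66%. Aire-KO mTEClo held 8 (8) or 5.19%, newborn mTEClo 9 (10) or 7.26%, newborn mTEChi 1 (1), adult cTEC 0 (1) and newborn cTEC 3 (4). The knockout pool of mTEClo was thus again below the 3 WT pools in share as in level.

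Ctnna2 blocks were found in 22 (25 unthinned) adult WT mTEChi cells and 0 Aire-KO mTEChi cells. Their share was higher in newborn mTEClo with 16 cells or 12.9% (18 or 14.5% unthinned) and newborn cTEC with 22 cells or 15.8% (27 or 19.4%). Adult cTEC held 4 of 77 or 5.19% (9 or 11.7%), newborn mTEChi 7 or 4.09% (12 or 7.02%), adult WT mTEClo 5 (6) and Aire-KO mTEClo 2 (3). A second draw of the thinning, added after the data were seen, moved newborn mTEChi from 7 to 10 cells.

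Some cells held blocks of more than 1 host. At full depth 84 of the 620 adult WT mTEChi cells (13.5%) held a block of at least 1 host and 11 held blocks of 2 or more hosts, where the product of the 4 shares gives 5.31. In Aire-KO mTEChi 3 cells (0.888%) held any block, in newborn mTEChi 23 (13.5%) and in adult WT mTEClo 69 (19.3%). The 11 cells included 5 with both Kcnip4 and Dlg2 blocks (1.17 from the product of the shares) and 4 with both Kcnip4 and Ctnna2 blocks (1.33). Reads in the same cells were part of the choice of these genes, so this is a description.

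The hosts' own exons were read in most block cells. Over all cells, exons of Kcnip4 had a read in 93.2% of its block cells and 47.9% of the other cells, those of Fam155a in 93.3% and 3.54%, and those of Ctnna2 in 92% and 24.7%. Dlg2 exons were read in 100% of block cells but also in 96.3% of the others. Within adult WT mTEChi the median level of the host was 22.6 CPM in block cells against 0 in the others for Kcnip4, 25.8 against 0 for Fam155a, 170.7 against 77.3 for Dlg2 and 121.1 against 0 for Ctnna2. The reverse did not hold, because hosts were read in many cells without a block. Of the adult WT mTEChi cells with at least 5 reads on host exons, 14.4% held a block for Kcnip4 (27 cells), 37.5% for Fam155a (12 of 32), 3.86% for Dlg2 (21 cells) and 16.3% for Ctnna2 (21 cells). As pool sums the exons of Kcnip4 lay at 1.75 to 9.51 CPM in all 13 pools and those of Dlg2 at 100.6 to 212.8 CPM, the latter highest in Aire-KO mTEChi. Fam155a exons were at 0.474 to 4.46 CPM in adult WT mTEChi and 0.109 CPM in the knockout, and Ctnna2 exons at 5.38 to 14.1 and 7.80 CPM.

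The comparison of adult WT mTEChi with mTEClo was not used to choose the genes, though it shares the WT mTEChi pools with the contrast that was. The genes were chosen as abundant in those pools, so higher values in mTEChi were favoured beforehand. The counts and p-values of this comparison are therefore given as descriptions. In edgeR's test 1 of the 36 genes was higher in mTEChi, where 7.54% of all genes were, and 0 were lower, where 4.13% of all genes were, so the members' share was below that of all genes. The gene called was Gm44679 inside Dlg2, at 1.53, 0.125, 7.48 and 0.371 CPM in mTEChi and 0.0178, 0.0167 and 0 CPM in mTEClo, with a fitted log2 difference of 7.22 (SE 1.79) at an adjusted p of 0.0363. Its pools did not overlap, which was so for this gene alone of the 32. In reads, mTEChi held 1078 and mTEClo 3, a ratio of CPM of 165.1 (exact 95% interval 56.3 to 802, counting error only). Over all groups, the 10 cells with the most reads held 93.9% of the reads on this gene. The call was lost without mTEChi pool 1 (adjusted p = 0.0664), without mTEChi pool 3 (0.0598), and without any of mTEClo pools 1 to 3 (0.0773, 0.11003 and 0.100), while DESeq2 gave an adjusted p of 1.74e-05 for this gene; with a block for age and sex it was 0.277.

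The other predicted genes were unevenly placed in this comparison, in which the choice of genes favours higher values in mTEChi. Of all 32, 28 had a positive and 4 a negative log2 fold change, with a median of 3.34 against 0.30 over all genes tested, and 10 were higher at an unadjusted p under 0.05, as were 21.6% of all genes. The largest log2 fold change after that of Gm44679 was 5.38 for Gm42766 inside Kcnip4 (SE 1.75, adjusted p = 0.0745). Downstream of Gm44679 in the same intron of Dlg2, Gm44676 stood at 1.84, 0.125, 8.17 and 4.72 CPM in mTEChi and 5.04, 12.7 and 7.29 CPM in mTEClo, with a fitted log2 difference of -1.31 (SE 0.97) at an adjusted p of 0.355. Gm44680 and Gm44681 likewise had -1.90 (SE 1.08) and -1.41 (SE 1.11) and did not pass. Among hosts, Ctnna2 exons stood at 13.3, 5.38, 14.1 and 8.16 CPM in mTEChi and 0.622, 2.90 and 2.43 CPM in mTEClo, with no overlap, and the fitted log2 difference was 2.22 (SE 0.63) at an adjusted p of 0.0527. DESeq2 put this gene past the threshold (adjusted p = 0.000976), as it did 12 of the 36 in all. Kcnip4, Fam155a and Dlg2 had log2 fold changes of -0.11 (SE 0.60), 1.07 (SE 0.99) and -0.50 (SE 0.16), none past the threshold in edgeR.

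Whether a Dlg2 block included reads on Gm44679 differed between mTEChi and mTEClo cells. Gm44679 is centred 1044 kb from the first start of Dlg2, before Gm44676, Gm44680 and Gm44681 at 1134, 1160 and 1171 kb. It was read in 9 of 13, 4 of 5 and 2 of 4 Dlg2 block cells of adult WT mTEChi pools 1, 3 and 4, that is in 15 of 22 (68.2%). It was read in 0 of 23, 0 of 20 and 0 of 14 block cells of the adult WT mTEClo pools. The small groups fell on the same sides, with 2 of 3 in Aire-KO mTEChi, 1 of 1 in newborn mTEChi, 0 of 8 in Aire-KO mTEClo and 1 of 10 in newborn mTEClo. Every mTEChi pool with a block cell lay above every mTEClo pool. The test of Gm44679 given above used the same reads, so it is no separate support. Gm44679 is also 1 of the 4 listed genes by which a Dlg2 block is called.

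The genes further along did not show this gap. Gm44676 was read in 95.5% of the adult WT mTEChi block cells and 94.7% of the 75 block cells of all mTEClo groups, Gm44680 in 86.4% and 94.7%, and Gm44681 in 72.7% and 69.3%. Of 2 unlisted genes in between, Gm44675 at 1089 kb was read in 72.7% and 88%, and Gm44677 at 1152 kb in 95.5% and 92%. Gm44675 lies only 45.3 kb after Gm44679 by the distance between their centres. Upstream of 1000 kb lie 14 unlisted genes. At least 1 of them was read in 12 of 26 mTEChi block cells (46.2%) and 25 of 75 mTEClo block cells (33.3%). By gene, most of these were read in a larger share of the adult WT mTEChi than of the mTEClo block cells. Gm44678 was read in 22.7% and 1.33%, and Gm45182 in 22.7% and 2.67%. Gm45162, a pseudogene on the opposite strand, went the other way with 13.6% and 18.7%, as did Gm24552 with 0% and 1.33%. Gm45162 also had a read in 8.16% of all cells without a Dlg2 block. No annotated start of Dlg2 lies between 614.1 kb, beside the window that is printed above, and 1196 kb.

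**Figure D4:**
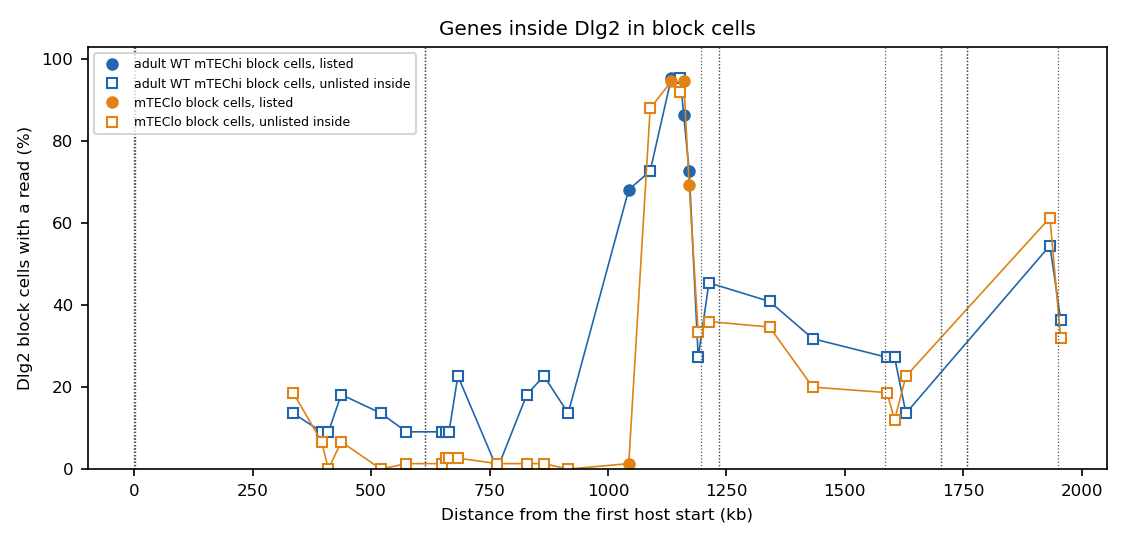
Share (%) of Dlg2 block cells with a read on each gene inside Dlg2, against the gene's distance in kb from the first start, for adult WT mTEChi (22 block cells) and all mTEClo groups (75 block cells). The groups lie furthest apart at Gm44679 at 1044 kb (68.2% against 1.33%) and come close to each other on the genes from 1134 to 1171 kb.

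Dlg2 block cells of adult mTEClo were often cells with tuft markers. Tuft cells are chemosensory epithelial cells, and thymic mTECs include cells that mimic them, marked here by Trpm5, Pou2f3, Dclk1 and Gnat3. The summed level of these 4 had a median of 208.6 CPM in block cells against 122.4 CPM in the others in mTEClo pool 1, 6774 against 234.6 CPM in pool 2 and 8533 against 535.4 CPM in pool 3. At a limit of 1000 CPM, chosen after the values were seen, with 26 cells between 500 and 2000 CPM, 37 of the 87 cells above it held a Dlg2 block (42.5%) against 20 of the 270 below it (7.41%). After thinning these were 35 (40.2%) and 18 (6.67%). The split held in each pool, with 7 of 12 cells against 16 (7.80%) in pool 1, 17 of 39 against 3 of 35 in pool 2, and 13 of 36 against 1 of 30 in pool 3. In Aire-KO mTEClo 5 of 23 cells against 3 (2.29%) held a block, a share above the limit of 21.7% from 5 cells.

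The other groups in which this was counted had few cells above the limit. In newborn mTEClo 0 of 3 cells above the limit and 10 (8.26%) below it held a Dlg2 block, and in adult WT mTEChi 1 of 23 and 21 (3.52%). The pools also differed in how much of these markers they held, at 471.05 to 3790 CPM in adult WT mTEClo, 1046 CPM in Aire-KO mTEClo and 286.4 CPM in newborn mTEClo. The part of this makeup in the differences between pools was not tested. Cells are not replicates, and pools 2 and 3 hold most of the cells above the limit.

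**Figure D5:**
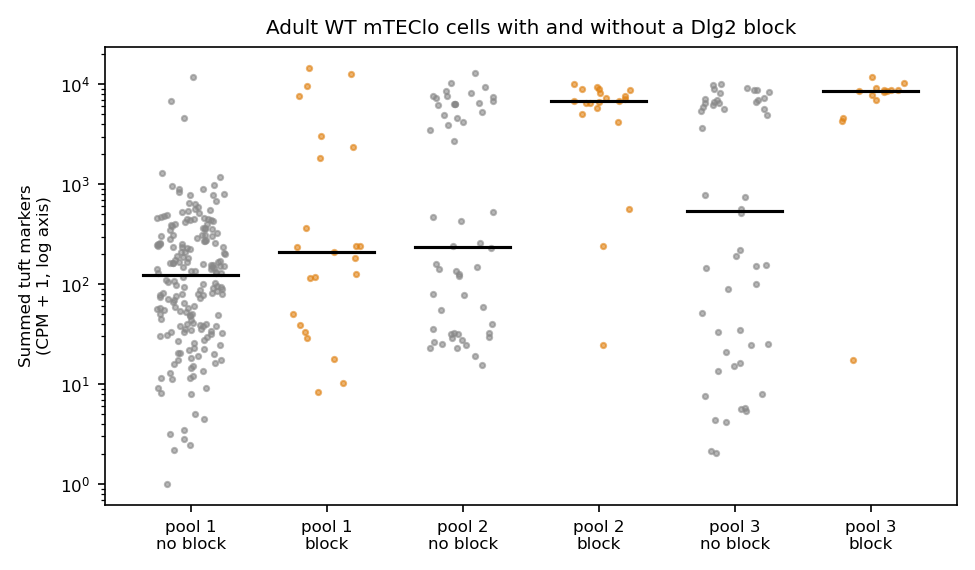
Summed level of the tuft markers Trpm5, Pou2f3, Dclk1 and Gnat3 in each adult WT mTEClo cell (CPM + 1, log axis) for cells with and without a Dlg2 block in the 3 pools, with the medians as bars. The medians are 208.6 against 122.4 CPM in pool 1, 6774 against 234.6 CPM in pool 2 and 8533 against 535.4 CPM in pool 3.

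In adult WT mTEClo, neuroendocrine markers were high in all of the few cells with a Fam155a block and in most of those with a Ctnna2 block. Chga, Chgb, Insm1 and Syp, which mark hormone-storing cells, summed to at least 100 CPM in 7 of the 7 Fam155a block cells and 4 of the 6 Ctnna2 block cells, against 26 of 350 (7.43%) and 29 (8.26%) other cells. The limit was again chosen after the values were seen. These blocks were counted at full depth, where the Fam155a block cells were deeper than the others (medians of 790002 against 589269 reads). After thinning, 2 cells of this group held a Fam155a block and 5 a Ctnna2 block. Medians were 846 against 4.05 CPM for Fam155a and 438.4 against 4.06 CPM for Ctnna2. The summed neuron markers (Snap25, Rbfox3, Stmn2 and Syt1) were also higher in these cells, with medians of 1551 against 92.7 CPM and 1486 against 95.3 CPM. In the adult WT mTEClo pools Syt1 was the largest part of this sum. It stood there at 110.5 to 361.5 CPM, and each of the others at no more than 123.2 CPM. Syt1 was at 537.7 to 641.6 CPM in the adult WT mTEChi pools. In adult WT mTEChi the same list had medians of 158.6 against 137.3 CPM for Fam155a and 230 against 128.3 CPM for Ctnna2, and the medians of neuron markers were lower in block cells (443.98 against 560 CPM and 518.03 against 551.5 CPM). In newborn mTEClo the 18 cells with a Ctnna2 block held more cTEC markers than the rest, with medians of 1253 against 754 CPM, and fewer tuft markers, with 19.9 against 55.4 CPM.

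Among adult WT mTEChi cells, Aire itself was not a uniform mark of a block. The median level of Aire was 1561 CPM in Kcnip4 block cells against 1020 CPM in the others, and 1499 against 1043 CPM for Ctnna2. It was 812 against 1055 CPM for Fam155a and 858 against 1054 CPM for Dlg2. All block cells in this group had reads on Aire, the lowest being at 103.6, 86.5, 11.96 and 54.7 CPM for Kcnip4, Fam155a, Dlg2 and Ctnna2. With the cells of each pool parted at the pool's median of Aire, 19 of 310 cells with higher and 8 of 310 with lower Aire held a Kcnip4 block after thinning. The counts were 6 and 9 for Fam155a, 7 and 13 for Dlg2, and 14 and 8 for Ctnna2. In newborn mTEChi, with 85 and 86 cells, they were 0 and 3, 2 and 1, 0 and 1, and 2 and 5. Without thinning, the newborn counts were 2 and 6 for Kcnip4 and 6 and 6 for Ctnna2. For Kcnip4 the adult and newborn counts thus ran in opposite directions, on few cells, and the difference was not tested. Without adult pool 1, the Kcnip4 difference between the cells with higher and lower Aire went from 3.55 to 1.14 percentage points.

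Blocks also occurred in cells with little or no Aire. In adult WT mTEClo the median of Aire was 13.0 CPM in Dlg2 block cells and 13.5 CPM in the others, and 11 of the 57 block cells had no Aire read. All 8 Dlg2 block cells of Aire-KO mTEClo and 7 of the 9 Ctnna2 block cells of adult cTEC had none. The cells without these blocks in those groups had a median of 0 CPM as well, so this was the usual level there. In adult WT mTEClo, the Fam155a and Ctnna2 block cells had medians of 50.2 and 50.6 CPM against 13.0 CPM in the others.

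The remaining comparisons gave no call among the 36 genes, and none among all genes. In edgeR's test of Aire-KO against WT adult mTEClo, 0 members were called, with 0% of all genes higher and 0% lower. There 0 predicted genes passed an unadjusted p under 0.05, 22 of 32 had a negative log2 fold change, the median was -1.03, and DESeq2 called 0. In newborn against adult WT mTEChi, 0 members were called (0% of all genes in either direction), 28 of 32 were negative with a median of -1.13, and 1 was lower at an unadjusted p under 0.05. That gene was Gm44676, which stood at 0.0310 CPM in the newborn pool and which DESeq2 called (log2 fold change -6.89, adjusted p = 0.0238). In newborn against adult WT mTEClo, 0 members were called (0% in either direction), 26 of 32 were negative with a median of -3.14, 0 passed an unadjusted p under 0.05 and DESeq2 called 0. In newborn mTEClo 12 of the 32, all inside Kcnip4, had no read. For the difference of the Aire effect between mTEChi and mTEClo, edgeR called 0 members (0% in either direction), 9 predicted genes were lower at an unadjusted p under 0.05 (2.212% of all genes), and DESeq2 called 1 member lower and 1 higher. This difference contains the contrast that chose the genes, so nothing is read from it. These contrasts had 1 pool in at least 1 arm. Aire, the deleted gene, was itself not called in the knockout contrasts, at log2 fold changes of -7.79 in mTEClo and -5.69 in mTEChi. The absence of calls therefore says little about the members.

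Genes of the hosts' pathways were called in both directions between adult WT mTEChi and mTEClo, where 7.54% of all genes were higher and 4.13% lower. Of 24 paralogs and partners of the hosts 23 were found by name and tested, and in edgeR's test 2 were higher and 3 lower, with a median log2 fold change of -0.39. The higher were Grin1, an NMDA receptor subunit that binds Dlg proteins (3.37), and Dpp10, a Kv4 auxiliary subunit (2.67). The lowest were Dpp6, another Kv4 auxiliary subunit (-4.10), and Unc79, a part of the NALCN complex (-3.21). Of 36 other long genes 35 were tested, with 2 higher and 4 lower and a median of 0.37. Among these were the receptor gene Erbb4 (5.65), the protein kinase gene Prkg1 (2.79), the guidance receptor gene Robo2 (-2.74) and the phosphatase gene Ptprd (-2.50). In the other 5 comparisons none of either list was called.

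Blocks of inner genes were not limited to these 4 hosts. Counting all genes inside a host rather than the listed ones, the share of adult WT mTEChi cells with a block after thinning had a median of 2.74% over the other genes of the annotation that held enough inner genes for a block. On this count Kcnip4 stood at 3.55%, with 45.6% of the other hosts higher, Fam155a and Ctnna2 at 1.94% each (56.9% higher) and Dlg2 at 0.161% (83.9% higher), so the 4 were not at the top. The highest of all were Il11ra1 with 87.1%, Slc22a14 with 80.3% and Picalm with 79.2%, shorter genes read in most cells. Of the 120 other hosts of at least 500 kb, 72 had a higher unthinned share in WT than in Aire-KO mTEChi, 46 a lower and 2 an equal one, with medians of 1.69% and 1.18%. The 4 hosts were at 4.84%, 2.26%, 0.645% and 2.74% in WT, and each was at 0% in the knockout.

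Predicted genes outside any other gene served as a comparison. The 898 TEC genes that overlap no other gene were at 0.339 to 0.717 CPM per kb in the 13 pools, highest in Aire-KO mTEChi, where the summed predicted genes of each host were lowest among mTEChi pools of more than 12 cells. In adult WT mTEChi these genes were at 0.570 CPM per kb in Kcnip4 block cells against 0.520 in the others and at 0.456 against 0.524 for Fam155a. They were at 0.744 against 0.514 for Dlg2 and at 0.743 against 0.514 for Ctnna2.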

How the data were processed

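RamDA-seq libraries of single sorted cells were analysed from the count table that the authors deposited. Per the labels and the study's methods, the authors trimmed reads with fastp 0.20.0, aligned them to mm10 with STAR 2.7.3a, dropped low-quality alignments with SAMtools 1.9, removed duplicates with Picard 2.21.1 and counted reads per gene without strand with HTSeq 0.11.2. The deposited values are counts, used as they stand, and all 1980 cells exceeded 200000 reads on over 8000 genes. The 2148 sequencing samples are 1980 cells, 168 of them sequenced in 2 runs. How those runs were joined is not given in the sources used here. The cells number 620 in adult WT mTEChi (444, 12, 82 and 82 in pools 1 to 4), 338 in adult Aire-KO mTEChi, 171 in newborn mTEChi, 357 in adult WT mTEClo (217, 74 and 66 in pools 1 to 3), 154 in adult Aire-KO mTEClo, 124 in newborn mTEClo, 77 in adult cTEC and 139 in newborn cTEC. Gene positions came from GENCODE M21 on GRCm38, which held 48263 of the 48437 identifiers.

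Counts were summed over the cells of a pool, and 11 mTEC pools of 6 groups were fitted together with edgeR 4.0.16 (quasi-likelihood test, TMM scaling, filterByExpr, Benjamini-Hochberg adjustment, 5 residual degrees of freedom) in R 4.3.3. Genes were called at a fold of 2 or more with an adjusted p below 0.05. On simulated data for adult WT mTEChi against mTEClo, with 200 of 39971 genes changed by a fold of 8, 44.5% were recovered at the measured spread. Alternatives were DESeq2 1.42.0, other scaling, no filter, plates as units, each pool left out and a block for age and sex. Shares have exact (Clopper-Pearson) 95% intervals, and a count of 0 was read as allowing up to 3 cells; intervals cover counting error only. Other steps used Python 3.11.15, numpy 2.4.6, pandas 2.3.3, scipy 1.17.1 and matplotlib 3.10.9. No doublet caller was run on these sorted single cells, and cells were not clustered.

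The members and the gene lists were chosen with earlier results of these data known. Named were the 36 members, Aire, the called members of the 2 lists with the highest and lowest log2 fold changes and the 3 other hosts with the highest share. Genes not listed but inside or beside the hosts were named after their values were seen.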

Additional observations from a re-analysis of the deposited data

How the results depend on the processing

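The members called higher in adult WT mTEChi than in mTEClo numbered 1 in the fit reported, 12 with DESeq2, 19 with plates as units, 0 with age and sex as a block, and 0 to 6 when 1 pool was left out (6 without mTEChi pool 2, which has 12 cells). For Aire-KO against WT adult mTEChi, 0 became 13 lower and 1 higher with DESeq2 and 33 lower and 1 higher with plates, the gene that was higher being Dlg2 itself. That contrast chose the genes, so these counts are a description. Newborn against adult mTEChi gave 1 lower with DESeq2 and 1 with plates. Newborn against adult mTEClo gave 1 higher and 5 lower with plates, and the difference of the Aire effect gave 1 higher and 1 lower with DESeq2 and with plates. Plates share a pool, so their p-values are too small, and the cause of the other changes was not tested. No paired analysis was possible because the replicate numbers of the labels only count cells within a group and tie no pool of one group to a pool of another in any comparison made; the newborn groups share plates, but were not compared with each other.

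With 25% of the listed genes as the limit for a block, the mean share over the adult WT mTEChi pools was 7.37% for Dlg2 (3.11% as reported) and 5.01% for Ctnna2 (2.73%). With the upper and lower of 3 equal parts by Aire compared, the difference in Kcnip4 share was 5.87 points (3.55 by the median, 1.14 to 4.09 with 1 pool left out) and that of Dlg2 0.0352 points (-1.94 by the median, -0.645 without thinning). With 1 pool left out, mean shares ranged from 2.03% to 3.68% for Kcnip4, 2.71% to 5.49% for Fam155a, 2.12% to 4.15% for Dlg2 and 2.01% to 3.64% for Ctnna2. Leaving out the 1 cell with the most reads and a second draw of the thinning were chosen after seeing the data. Of all results and alternatives computed, 6 values moved beyond the spread or count limit without a test, 15 became stronger, 6 became weaker, 0 calls reversed direction, and the others kept their side of the threshold or moved within the spread. The limit on depth is the number of block cells, 1 to 57 in a group that had any.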
